A study of Homo sapiens with 6 samples.

Results

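FNDC3B is a protein-coding gene on the plus strand of chromosome 3, at chr3:172039578-172401669 in hg38. Nearly all of its listed positions lay in introns, which make up 348768 of the 362092 bases of the gene. The gene was chosen by its number of called sites in these same libraries, so its counts of sites and its mutation ratios under the 2 dNTP conditions are given as a description. Its members are the positions of the deposited tables that fall inside the gene body on the plus strand. There were 9137 of 176343 positions listed under imbalanced dNTP and 7280 of 246881 listed under balanced dNTP, and 650 positions stood in both tables. No position of the interval was listed on the minus strand in either table.

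The RNA was chromatin-associated RNA (caRNA) of HepG2 cells, a line from a human liver cancer, from 3 biological replicates. After ligation each RNA was divided between a reverse transcription with imbalanced dNTP (dATP at 1 mM, the others at 2 µM) and one with balanced dNTP (all at 1 mM), which served as the input. With dATP in excess, G, A and C that carry a 2′-O-methyl group are read by the reverse transcriptase as T, and the mutation ratio of a position is its reads with T divided by its depth. Both conditions started from the same RNA, so they differ in the reverse transcription alone. Of 15 liver genes used as markers, 12 had positions listed under imbalanced dNTP and 8 had a called site. TTR, FGB and HP had no position under imbalanced dNTP. None of 7 marker genes of other cell types had a position in either table. The share of all genes with a listed position was not worked out, so these counts are only a description.

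Nm is a methyl group on the 2′ oxygen of the ribose, which can sit on any of the 4 nucleosides and is best known from rRNA, snRNA and tRNA. Introns are removed from the transcript close to where it is made, so their RNA is read mainly in the chromatin fraction. FNDC3B encodes a membrane protein of the endoplasmic reticulum with fibronectin type III domains, known for a role in adipocyte differentiation and studied as an oncogene in liver cancer. The annotation gives 12 transcripts, and the canonical transcript has 26 exons and 25 introns, of which introns 1 and 3 are by far the longest.

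A called site is a position where every replicate had 10 reads or more, 3 or more of them with T, and a ratio that exceeded the input ratio by more than 3-fold. The study also required a ratio above the spike-in background, which was not applied here, so the sites may be more than its full criteria would pass. FNDC3B had 223 such sites, 220 of them in introns. The sequences below show first the sites of highest mean ratio among those with 20 reads or more in each replicate, then the A and the C with the highest ratio, and last the 1 called site in a canonical exon. Each is the plus strand of hg38 from 10 bases before to 10 bases after the site, 5′ to 3′, and the capitals mark the site with its neighbour on either side.
site 172137908: agagctaatTGTtaggaaaaa
site 172161057: tcttattttTGTcagtgacta
site 172172907: tacttagggTGTattctactc
site 172142755: cctgatactTGTcttagtctg
site 172134259: tgcctcttcTGTatagttcac
site 172212936: ctcttaatgTATcacgaggac
site 172050076: aggttctgcTCCctctgtttt
site 172133538: acacttcagTGCattcaaggt
The number in each name is the position on chromosome 3. All 5 sites of highest ratio among those with 20 reads or more were guanosines with a U on both sides. The adenosine of highest ratio, chosen without that limit on depth, also had a U on both sides.

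The closest run of called sites lay at chr3:172134249-172134404, near the start of intron 3. It is shown because it holds 6 called sites in 156 bases, and the capitals mark those 6 sites, all G.
stretch 172134249: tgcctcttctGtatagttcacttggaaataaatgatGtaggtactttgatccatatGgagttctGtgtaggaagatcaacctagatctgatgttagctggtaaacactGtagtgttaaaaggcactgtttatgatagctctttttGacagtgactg
The mean mutation ratios of these 6 sites lay between 10.2% and 23.0%, at a lowest depth between 22 and 39 reads. In this stretch 23 positions were listed under imbalanced dNTP, so most listed positions were not called.

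FNDC3B had more listed intronic positions than any other of 1193 protein-coding genes, in both tables. Under imbalanced dNTP it held 8835 intronic positions, against 4758 in A2M, a liver protease inhibitor, 3213 in TGFBR2, a receptor of TGF-beta, and 3189 in GMDS, an enzyme of GDP-fucose synthesis. These 8835 positions were 11.3% of all such positions, and under balanced dNTP the gene held 5.72%. By intronic called sites it ranked second after A2M, which had 432. These counts are not scaled to gene length, so they do not rank the genes by density. The genes span 362 kb for FNDC3B, 48.6 kb for A2M, 87.5 kb for TGFBR2 and 621.8 kb for GMDS. Introns held 96.7% of the FNDC3B positions under imbalanced dNTP and 95.9% under balanced dNTP. These shares are near that of the sequence, where 348768 of the 362092 bases of the gene are intronic. Of the genes that lie within the interval, the 7SL pseudogene RN7SL141P on the same strand had 3 positions in each table and no called site.

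The family of FNDC3B and its neighbours on the chromosome had few listed positions, apart from PLD1. In all, 1193 protein-coding genes had intronic positions listed. The share of all genes without any was not worked out, so these counts are only a description. None of 9 genes of the FNDC family had a position under imbalanced dNTP, and FNDC3A, the closest relative, had 10 under balanced dNTP. Among 8 neighbouring genes, PLD1, a phospholipase, had 41 positions under imbalanced and 200 under balanced dNTP, and none of its positions was called. NCEH1, a cholesterol ester hydrolase, had 1 position under balanced dNTP, and the other neighbours had none in either table.

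The positions were not spread evenly over the introns. Intron 1, of 72.7 kb, held 3862 positions under imbalanced dNTP and 133 called sites. Intron 3, of 93.3 kb, held 3194 positions and 75 called sites. Together both introns make up 46.9% of the intron length, and they held 77.2% of the positions under imbalanced dNTP, 62.7% of those under balanced dNTP and 93.3% of the called sites. Called sites were found in 7 introns, with 7 in intron 4, 3 in intron 6, 2 in intron 22 and 1 each in introns 11 and 12. Intron 2, of 20.9 kb between the long pair, had 193 positions and no called site, at median depths of 9, 9 and 13 reads in replicates 1, 2 and 3.

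**Figure D1:**
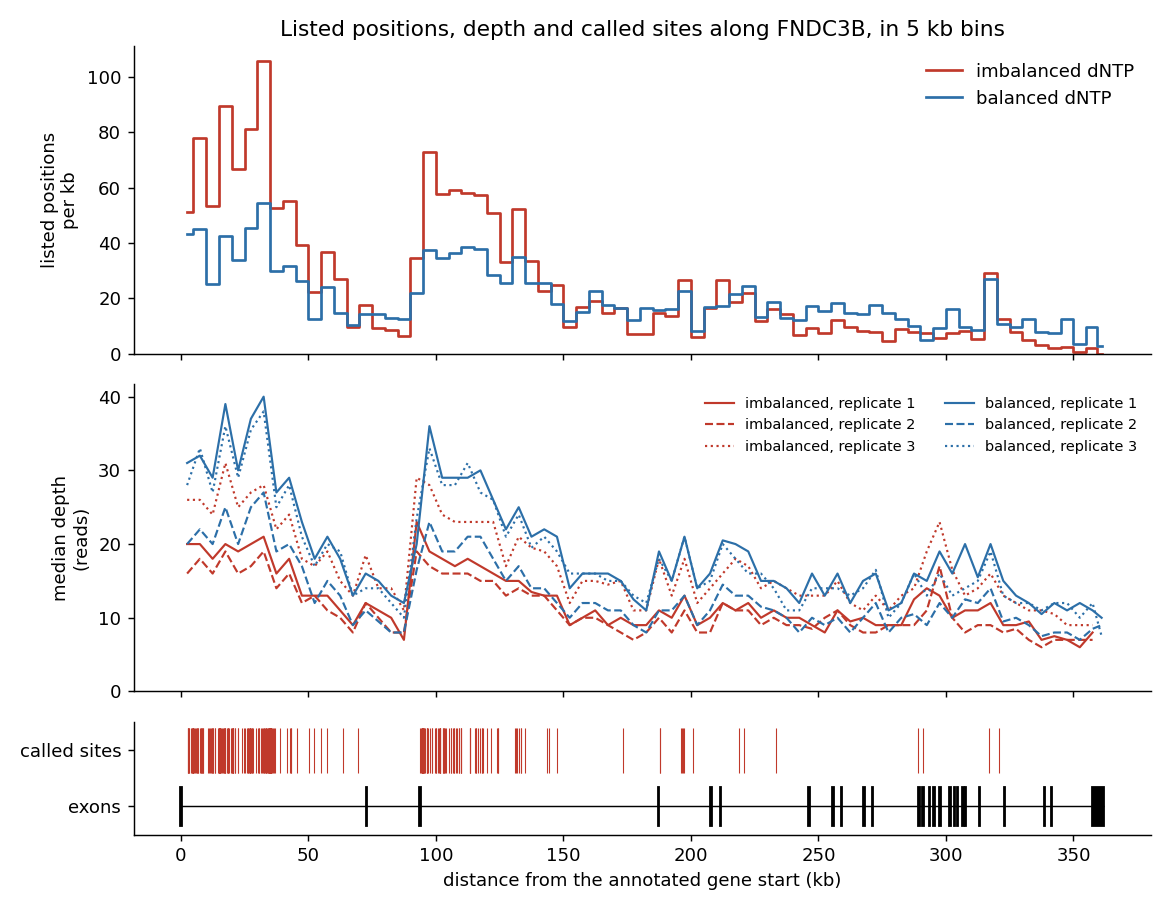
Distance from the annotated gene start in kb is on the x axis. The upper panel gives listed positions per kb and the middle panel the median depth of listed positions in each of the 6 libraries, both in bins of 5 kb, and the lower panel marks canonical exons and the 223 called sites. Density in both tables and depth in all 6 libraries were high over the first 40 kb, lower from there to exon 3 at 93.9 kb, high again after exon 3 and lower towards the end of intron 3.

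Within each long intron, density and depth were higher in the first 40 kb than in the rest. The first 40 kb of intron 1 had 72.4 listed positions per kb under imbalanced dNTP and 122 called sites, and the rest had 29.6 per kb and 11 called sites. The first 40 kb of intron 3 had 57.8 per kb and 70 called sites, and the rest had 16.6 per kb and 5. Balanced dNTP showed the same order, with 39.6 against 19.4 per kb in intron 1 and 34.9 against 17.7 per kb in intron 3.

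Density and depth rose steeply at exon 3. In the 10 kb before exon 3 there were 67 positions under imbalanced dNTP and no called site, at median depths of 8, 7 and 11 reads in replicates 1, 2 and 3. In the first 10 kb of intron 3 there were 756 positions and 35 called sites, at median depths of 19, 17 and 27 reads. Under balanced dNTP the same step went from 129 to 391 positions and from 12, 9 and 11 to 33, 22 and 32 reads, so every library rose there. The last 10 kb of intron 3 had 57 positions and no called site, at 9, 9 and 11 reads. Annotated transcripts start 6498 and 6497 nt upstream of exon 3, and between the first of these starts and exon 3 only 40 positions under imbalanced and 82 under balanced dNTP were listed. Exon 3 itself held 17 and 8. What gives the profile its shape was not tested.

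Called sites did not gather at the splice sites. Of the 220 intronic called sites, 4 lay within 200 nt of an annotated splice site, or 1.82%. The share was 2.05% of intronic positions listed under imbalanced dNTP, 3.09% of those under balanced dNTP and 2.93% of all intronic G, A and C bases. Neighbouring called sites had a median gap of 272 nt, and 45.3% had another called site within 100 nt. These distances were not set against those of sites placed at random at the same density. The longest gap between neighbours was 55820 nt.

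The sequence around the listed positions was nearly always found once in the genome. Words of 31 bases centred on intronic G, A and C of FNDC3B occurred more than once in hg38, on either strand, for 8.60% of these bases. For intronic positions listed under imbalanced dNTP the share was 0.0566%, or 5 of 8838, under balanced dNTP it was 1.26%, and none of the 223 called sites had a repeated word. Listed positions were thus rare in repeated sequence under either condition.

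The depth of FNDC3B was low throughout. Median depths of its listed positions were 15, 14 and 21 reads in replicates 1, 2 and 3 under imbalanced dNTP and 21, 14 and 20 under balanced dNTP. The lowest depth in any library was 5 reads, and the highest was 73 under imbalanced and 84 under balanced dNTP. Replicate 3 was the deepest of the imbalanced dNTP libraries, and replicate 2 was the shallowest library in both conditions. The listed depth of the whole tables ranged from 17063930 to 22485865 reads summed over positions under imbalanced dNTP and from 22974020 to 34367262 under balanced dNTP. The FNDC3B positions held 0.763%, 0.787% and 0.911% of it under imbalanced and 0.501%, 0.512% and 0.597% under balanced dNTP. Both conditions had their highest share in replicate 3.

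At this depth a listed position usually rested on few mutated reads. Under imbalanced dNTP every listed position had at least 3 reads with T in 1 library or more, and 63.5% had at most 3 in any library. Under balanced dNTP 96.0% had a single read with T over all 3 libraries together. At least 3 reads with T were reached in 1 library at 7728 positions, in 2 libraries at 1151 and in all 3 at 258. Most positions thus reached 3 mutated reads in a single library.

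Of the 9137 positions, 6081 had 10 or more reads in each imbalanced dNTP library, and 235 of these had at least 3 reads with T in each. The input criterion removed 12 of them, which left the 223 called sites. This was 3.67% of the 6081, while 26.7% of all positions with this depth in the whole table were called. Because the gene was chosen by this measure, the share is only described. In bands of a lowest depth from 10 to 14, 15 to 19, 20 to 29 and 30 to 49 reads, 1.104%, 4.46%, 6.97% and 17.6% of the FNDC3B intronic positions were called. In other protein-coding introns it was 1.42%, 3.55%, 7.32% and 14.3%, so FNDC3B was above them in 2 bands and below them in 2. With the imbalanced and balanced libraries exchanged, 13 positions of FNDC3B passed the same criteria.

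Most called sites had no more mutated reads in their weakest library than the criteria require. The lowest depth of a called site had a median of 19 reads and reached 52. The median of the mean mutation ratio was 16.5%, the quartiles were 14.2% and 20.2%, and the range ran from 6.55% to 40.6%. In 168 of the 223 the library with fewest mutated reads had exactly 3. Another 339 positions of sufficient depth had at least 3 reads with T in 2 libraries and 2 in the other, with a median ratio of 14.9%, and 78.2% of them were G.

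**Figure D2:**
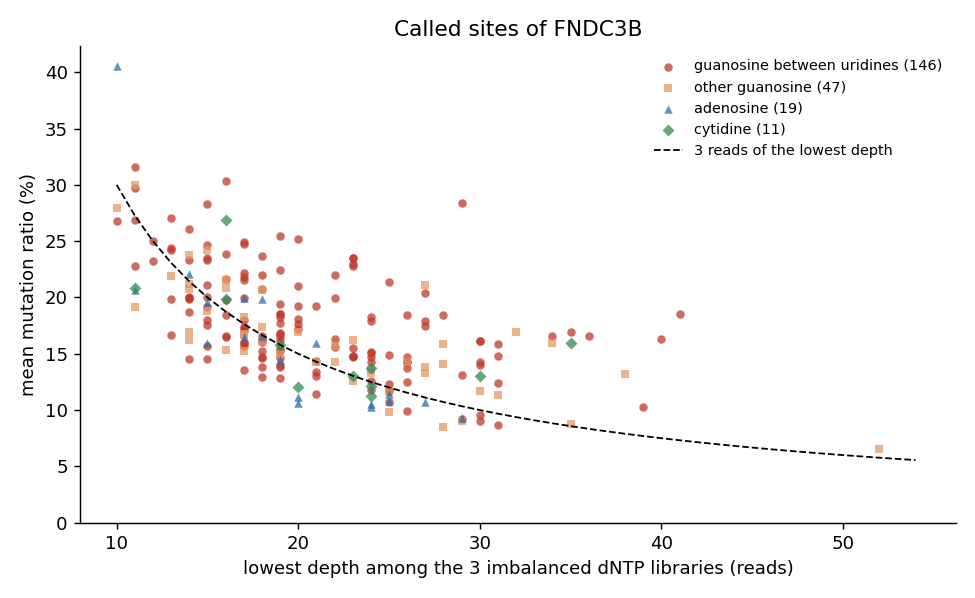
The lowest depth among the 3 imbalanced dNTP libraries, in reads, is on the x axis and the mean mutation ratio in percent on the y axis, for the 223 called sites, with symbols for 146 guanosines between uridines, 47 other guanosines, 19 adenosines and 11 cytidines. The broken line is 3 reads divided by the lowest depth. Sites lie on both sides of it, because the other libraries can be deeper or hold more mutated reads.

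Single replicates passed far more positions than all 3 together. The criteria passed 2657 positions in replicate 1 alone, 2249 in replicate 2 and 5012 in replicate 3, the deepest. Of these, 8.39%, 9.92% and 4.45% passed in every replicate. With 1 replicate left out, 626, 699 and 404 positions passed without replicates 1, 2 and 3. The called sites had median ratios of 16.7%, 17.4% and 14.3% in replicates 1, 2 and 3, at median depths of 24, 22 and 31 reads. The ratio was lowest in the deepest library.

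The values of the named sites show this spread. The site at 172137908, in intron 3, had 7 of 31, 9 of 29 and 11 of 35 reads with T in replicates 1, 2 and 3, a mean ratio of 28.3% ± 5.00 (SD, n = 3). The site at 172161057 had 5 of 24, 4 of 20 and 9 of 26, a mean of 25.1% ± 8.21 (SD, n = 3), so its replicates ranged more widely. The site at 172142755 had 3 of 26, 7 of 23 and 12 of 42, and replicate 1 lay well below the others. The site at 172134259 had 6 of 31, 8 of 23 and 4 of 27, a mean of 23.0% ± 10.5 (SD, n = 3).

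Only 1 of these 5 was also listed in the input. The site at 172172907 had 5 of 35, 5 of 23 and 9 of 26 reads with T under imbalanced dNTP and 0 of 41, 1 of 24 and 0 of 40 under balanced dNTP. Every imbalanced dNTP library lay above every balanced one. The site was named for its high ratio, so this is a description.

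The deepest called sites differed in their ratios. The site at 172060192, in intron 1 and in the context UCGUG, had 5 of 54, 3 of 52 and 3 of 65 reads with T, a mean of 6.55% ± 2.42 (SD, n = 3), the lowest ratio among the called sites. The site at 172060205, 13 nt further, had 8 of 46, 6 of 40 and 7 of 42, a mean of 16.4% ± 1.23 (SD, n = 3), and its replicates hardly differed. The site at 172070137 had 8 of 45, 10 of 41 and 6 of 45, a mean of 18.5% ± 5.56 (SD, n = 3). All 3 lay in the dense first 40 kb of intron 1. The other two of the 5 deepest, at 172134313 and 172134305, belong to the stretch of 6 sites in intron 3 and had mean ratios of 10.2% ± 2.24 and 13.2% ± 4.84 (SD, n = 3 each).

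The site of highest ratio for each base rested on shallow coverage. The adenosine at 172212936, in intron 3, had 4 of 10, 4 of 10 and 5 of 12 reads with T, a mean of 40.6% ± 0.962 (SD, n = 3). The guanosine at 172240563, in intron 4, had 5 of 15, 4 of 11 and 4 of 16. The cytidine at 172050076, in intron 1, had 6 of 18, 5 of 16 and 5 of 31. At such depths 1 read moves the ratio by several percent.

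Exons held 3 called sites. The site at 172133538 lay in canonical exon 3, 8 nt from its splice site, with 6 of 32, 5 of 39 and 9 of 47 reads with T, a mean of 16.9% ± 3.54 (SD, n = 3). The sites at 172186993 and 172330439 lay in exons of other transcripts and within canonical introns 3 and 12. Reads of spliced and unspliced RNA cannot be told apart at these positions.

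Most called sites had no ratio in the input to set beside their own. Of the 223, 203 were not listed under balanced dNTP and so counted with an input ratio of 0, and 20 were listed in both tables. Of the 203, 108 had another position within 10 nt that was listed under balanced dNTP, at a median depth of 110.5 reads summed over the 3 libraries. A count of 0 at that depth allows a ratio of up to 2.71%, for counting error only. For the other 95 sites the input depth is not known from the tables.

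The 650 positions listed in both tables show T in both conditions. Because listing under imbalanced dNTP needs mutated reads, their ratios stand above those of a base picked at random. In 59 positions listed under balanced dNTP, T made up at least 20% of the summed reads. Of these, 29 were also listed under imbalanced dNTP and none was called. Without them, at 621 positions, T made up 9.95%, 10.1% and 10.7% of the reads in replicates 1, 2 and 3 under imbalanced dNTP and 1.22%, 1.14% and 1.21% under balanced dNTP. The replicates of each condition were close. The conditions did not overlap, but listing and the removal of the 29 both act on reads with T. How much of the gap between the conditions comes from the choice of positions was not tested. With all 650 positions the means were 12.03% ± 0.354 and 3.57% ± 0.124 (SD, n = 3 each).

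Other mismatches differed far less than T, at positions that were listed for their T reads. Bases that were neither the reference nor T made up 0.454% ± 0.0389 of the reads under imbalanced and 0.386% ± 0.0613 under balanced dNTP (SD, n = 3 each). Within the pairs they were 0.410% and 0.402%, 0.473% and 0.318%, and 0.481% and 0.437%, higher under imbalanced dNTP in all 3. By reference base, T made up 11.7% ± 0.362 of the reads at G, 8.42% ± 0.935 at A and 9.11% ± 0.561 at C under imbalanced dNTP (SD, n = 3 each). Under balanced dNTP the values were 1.16% ± 0.0911, 1.23% ± 0.0466 and 1.21% ± 0.357. Guanosine stood above adenosine and cytidine in every imbalanced dNTP library, and under balanced dNTP the 3 bases overlapped.

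**Figure D3:**
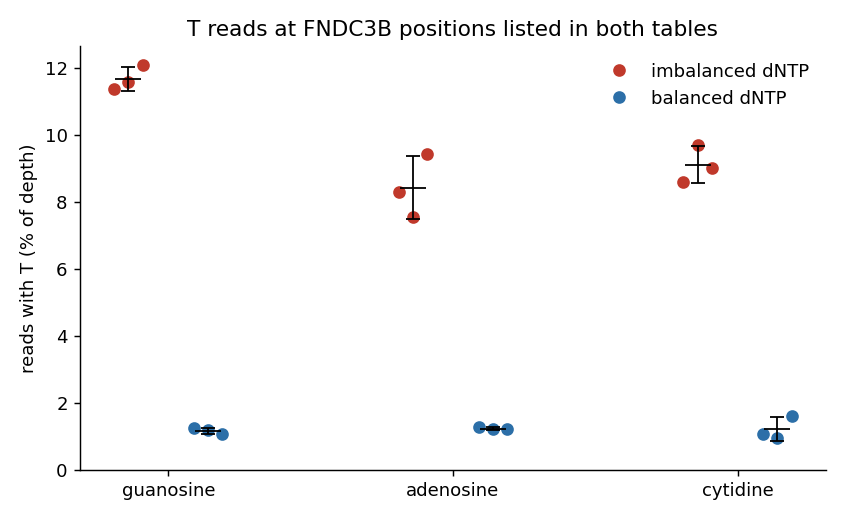
Reads with T, in percent of depth, are on the y axis for guanosine, adenosine and cytidine on the x axis, at the 621 positions listed in both tables that remain without those of high T in the input. Each point is 1 library, and the bar gives the mean and SD of 3 libraries. Imbalanced dNTP libraries sit between 7.56% and 12.1% and balanced ones between 0.939% and 1.61%.

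In the edgeR test, 474 of these positions had 10 reads or more in each of the 6 libraries. The T share was higher with imbalanced dNTP at 55 of them (edgeR, adjusted p under 0.05) and lower at none. Each position had been listed for 3 or more reads with T in an imbalanced dNTP library. The listing thus favoured this direction, and without regard to p only 5 of the 474 had a lower T share. The log2 change is that of the mutated reads relative to the other reads. The 55 were 11.6% of the 474, where 73.9% of all 32284 positions tested were higher. The count and its splits below are a description, and nothing further is read from them. Without the replicate block the count was 174, and with replicate 1, 2 or 3 left out it was 2, 3 or 0. With TMM factors none was higher and 3 were lower, so that scaling ended every call of a higher T share in FNDC3B. Of the 55, all were intronic, 35 in intron 1 and 20 in intron 3, and 18 were also called sites. Their log2 change had a median of 3.94 and a range from 3.38 to 4.90, and the median over the 474 was 2.75. By base, 47 of 239 G, 2 of 134 A and 6 of 101 C were higher, and 38 of the 47 G lay between uridines.

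Which bases were listed differed between the conditions. Under imbalanced dNTP 49.1% of the FNDC3B positions were G, 29.5% A and 21.4% C. Under balanced dNTP the shares were 34.8%, 35.4% and 29.8%, and the introns themselves hold 30.4%, 41.4% and 28.2% among their G, A and C. Of the 223 called sites 193 were G, 19 A and 11 C, so G went from 30.4% of the bases to 86.5% of the called sites. Both tables list positions at unlike numbers of reads with T, so their shares are not like for like. Neighbouring sites are not independent, and these shares carry no test.

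The bases beside the site also differed between the sets. The share of positions between uridines on both sides (UNU, where N is the reference G, A or C) was 10.1% of intronic bases, 12.4% of positions under balanced dNTP, 33.5% under imbalanced dNTP and 70.9% of called sites. Of the 193 called G, 146 were in UGU, or 75.6%, against 11.8% of all G of the introns. Of the called A, 8 of 19 were in UAU, and of the called C, 4 of 11 were in UCU.

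Over the 48 contexts of 3 bases, UGU was listed most often. Under imbalanced dNTP 22.7% of the 8472 intronic UGU bases were listed, then 13.7% of UGC, 11.4% of CGU, 9.11% of UGA and 8.79% of UAU. Under balanced dNTP the same contexts were listed at 4.30%, 4.68%, 3.65%, 3.43% and 3.26%. The range among these contexts was far narrower in the input, where most listed positions rested on a single read with T. Listing under imbalanced dNTP took at least 3 in a library, so the shares are not on the same scale. Among motifs of 5 bases, UUGUG had 23 called sites, CUGUA 16, UUGUU 14 and CUGUG 13. Between 22.01% and 27.29% of the intronic copies of these 4 motifs were listed under imbalanced dNTP.

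In the dense stretch of intron 1, more UGU guanosines were listed than not. In the first 40 kb of intron 1, 532 of 966 UGU guanosines were listed under imbalanced dNTP, or 55.1%, and 10.5% of the 7483 other G. In the first 40 kb of intron 3, 455 of 1031 UGU guanosines were listed, or 44.1%, and 8.49% of the other G. Under balanced dNTP the shares in the same stretches were 7.25% and 6.86% in intron 1 and 8.73% and 5.47% in intron 3. In the remainder of these introns UGU fell to 27.4% and 16.3% listed and other G to 4.90% and 2.48%, so the gap between the contexts was present at both depths. The 79 and 51 called UGU sites of the dense stretches were 130 of the 146. Listing under balanced dNTP mostly rested on a single read with T, so its shares are not on the same scale.

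**Figure D4:**
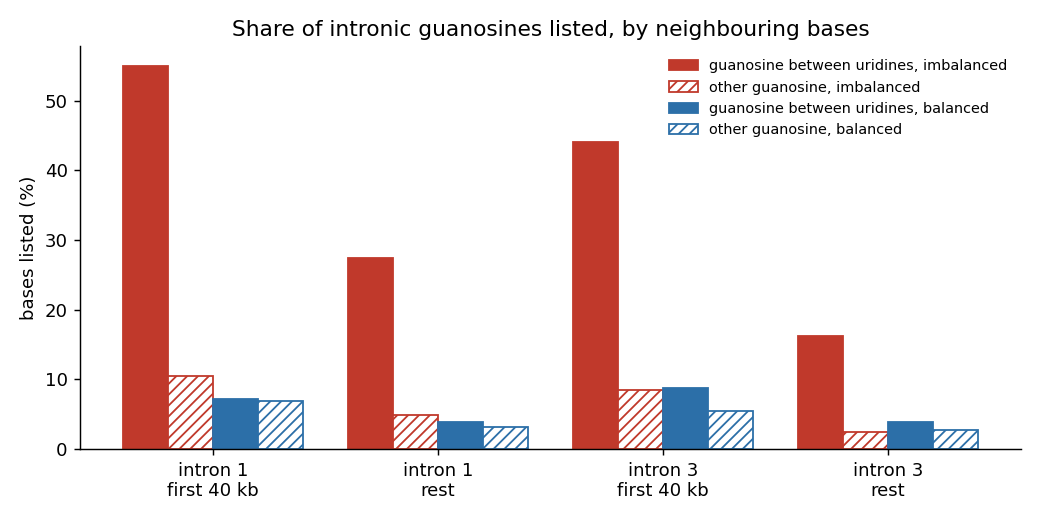
The y axis gives the percent of guanosines listed, for the first 40 kb and the rest of introns 1 and 3. Filled bars are guanosines between uridines and hatched bars other guanosines, in red for imbalanced and in blue for balanced dNTP. The filled red bars stand between 16.3% and 55.1% and all others at or below 10.5%. The conditions list positions at unlike numbers of reads with T.

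UGU also stood apart among positions of like depth. Of 1251 listed UGU positions with 10 reads or more in each library, 146 were called, or 11.7%. Of 1719 other G it was 47, or 2.73%, of 1830 A it was 19, or 1.04%, and of 1281 C it was 11, or 0.859%. The median depths of the 4 classes lay between 18 and 19, 16 and 17, and 24 and 26 reads in replicates 1, 2 and 3. T made up 12.4%, 13.1% and 12.6% of the reads at the UGU positions and 8.47%, 9.08% and 9.51% at the other G. Every library gave a higher share at UGU, and these libraries were used in listing the positions.

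Introns of other genes had fewer G among their called sites, except those of RBM39. In the introns of A2M 61.8% of 432 called sites were G, in APOB, the apolipoprotein of low-density lipoprotein, 71.1% of 180, in DHRS2, a dehydrogenase, 41.8% of 55, and in RBM39, a splicing factor, 87.1% of 31. FNDC3B had 86.4% of 220. The genes also differed before calling. Of intronic positions listed under imbalanced dNTP, G made up 49.4% in FNDC3B, 47.4% in RBM39, 41.2% in APOB, 35.4% in A2M and 29.4% in DHRS2. Among the called G the share in UGU was 76.3% in FNDC3B, 60.7% in A2M, 60.2% in APOB, 59.3% in RBM39 and 34.8% in DHRS2. The median lowest depth of the called sites was 19 reads in FNDC3B, 23 in RBM39, 32 in APOB, 40 in A2M and 49 in DHRS2. Their median mutation ratios ran the other way, at 16.5%, 15.3%, 12.1%, 10.4% and 9.46%.

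The share of G was also set against other introns at a like depth. In other protein-coding introns 72.1% of the called sites with a lowest depth between 10 and 49 reads were G, and in FNDC3B 86.3%. From 10 to 14, 15 to 19, 20 to 29 and 30 to 49 reads the shares were 86.7%, 88.0%, 83.1% and 91.3% in FNDC3B and 81.8%, 80.3%, 72.7% and 63.4% in other introns. The other introns had a lower share in each deeper band, and FNDC3B showed no such order. Listed positions showed the same, with G at 48.7%, 48.9%, 50.7% and 48.9% in FNDC3B. In other introns it was 52.6%, 47.6%, 43.2% and 38.4% of listed positions. The last band of FNDC3B held 23 sites. With a lowest depth under 30 reads alone, G made up 85.7% of the called sites in FNDC3B, 84.6% in RBM39, 74.8% in A2M, 67.1% in APOB and 40% in DHRS2, where 5 sites were left. The difference was not tested, since sites of 1 gene share their RNA.

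The genes most like FNDC3B across the libraries were found by the distance between profiles of summed intronic depth over the 6 libraries, relative to each library's listed depth and to the gene's mean in each table. Among 69 genes with at least 200 positions in each table they were A2M, EML4, SNTB1, HLF and SLC38A2, at distances from 0.0105 to 0.0319 on the log2 scale. The median gene lay at 0.0725. The FNDC3B profile itself was -0.10, -0.05 and 0.15 in replicates 1, 2 and 3 under imbalanced dNTP and -0.10, -0.06 and 0.16 under balanced dNTP. This is the profile of most of the 69 genes, whose medians were -0.10, -0.05, 0.15, -0.10, -0.05 and 0.14 in the same order.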

How the data were processed

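Nm-mut-seq was analysed in caRNA of HepG2 cells, in 3 replicates with imbalanced and balanced dNTP. The authors used Cutadapt for trimming, molecular identifiers for removal of duplicates, TopHat2 for mapping to hg38 and JACUSA for base counts. They deposited counts of reads with each base, without normalization, for each listed position and library, and the deposited JACUSA score was not used. Positions were placed in GENCODE release 44. FNDC3B, its comparison genes, the marker lists and the rule for named sites were chosen with earlier results of these data known. Named sites were the 5 of highest mean ratio with 20 reads or more, the 5 deepest, the highest of each base and any in an exon. The spike-in background was not applied. Only the Nm-mut-seq libraries were used.

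Mutated reads were compared with the other reads in edgeR 4.0.16 (R 4.3.3, quasi-likelihood test), in a model with library effects and a replicate block on the mutated share, and p-values were adjusted by Benjamini-Hochberg over 32284 positions. Alternatives were DESeq2 1.42.0 and Fisher's exact test. Libraries of the same number share their ligated RNA, and deviations of log2 depth correlated within same-numbered pairs at 0.51, 0.34 and 0.72. Replicates 1 and 2 also correlated across numbers. Imbalanced replicate 1 with balanced replicate 2 gave 0.385, and imbalanced replicate 2 with balanced replicate 1 gave 0.344. Both exceed the 0.338 within pair 2, so depth alone does not single out that pair. On simulated data with 200 changed positions among 32284, the fit recovered 2% of 4-fold and 64% of 16-fold changes and called 0 unchanged positions. Recovery was not tested for FNDC3B positions alone, whose depth was low, nor with most positions changed. Python 3.11.15 (pandas 2.3.3, numpy 2.4.6, matplotlib 3.10.9) was used elsewhere. Between 0.613% and 1.95% of FNDC3B positions had identical counts in a pair of replicates. Since intervals are for counting error only and depth was low, a ratio at 10 reads changes by 10 percentage points with 1 read.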

Additional observations from a re-analysis of the deposited data

How the results depend on the processing

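Called sites of FNDC3B numbered 223. The count was 108 with a minimum depth of 20, 1 with 50, 11 with at least 5 reads with T, 14 where each replicate had to reach a ratio of 0.2 and 20 with only positions listed in both tables. Requiring fewer replicates raised it to between 404 and 699 when each was left out, and these include the 223 by construction. A ratio of at least 0.1, 5 times the input or a pooled input kept it between 169 and 227. The intronic share of 98.7% became 99.6% with canonical exons only, 99.1% with a minimum depth of 20 and 97.0% to 98.4% without 1 replicate. The median ratio of 16.5% became 14.3% with a minimum depth of 20 and 6.55% with 50, at 1 site. The share of G became 92.9% at a ratio of at least 0.2 and 72.2% to 78.2% without 1 replicate. The share of UNU became 78.6% at that ratio, 74.2% with the best site of each 100 nt cluster, 67.6% with a minimum depth of 20 and 54.6% to 60.6% without 1 replicate. Near splice sites, 10 called sites lay within 500 nt, and 7 to 15 within 200 nt without 1 replicate. The 55 positions raised in edgeR became 174 without the replicate block, 0 with TMM factors (3 lower, and 3305 in place of 23850 raised over all positions), 28 at a depth of at least 20, 98 with DESeq2, 3 with Fisher's exact test in each replicate and 0 to 3 without 1 replicate. In the main test 69 of the 474 had an unadjusted p under 0.05. Except where fewer positions or libraries entered, the cause was not tested. The share in soft-masked repeats was not run, because the genome copy used here marks no repeats. Repeated words of 31 bases, chosen after seeing the data, took its place, with 0 called sites in each setting. The lowest depth of the called sites had a median of 19 reads, and 3 mutated reads are the fewest that count at any depth.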
